A study of Arabidopsis thaliana with 18 samples.

Results

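GH3 genes encode acyl acid amido synthetases, enzymes that join the plant hormone auxin, indole-3-acetic acid, to amino acids. In Arabidopsis, conjugation to aspartate or glutamate leads to loss of the active hormone, while some other conjugates can be cleaved again. Several GH3 genes are induced within minutes to hours by auxin, so that the hormone raises the enzymes that remove it. The GH3 genes described here are those named, each alone, by the annotation of 1 probe set of the arrays, a probe set being the group of short probes that reads 1 transcript. There are 5 of them, each on 1 of the 13513 probe sets that name a single gene, which cover 13350 genes, out of 22746 probe sets in all. They are GH3.3 (AT2G23170, probe set 245076_at), WES1, also called GH3.5 (AT4G27260, 253908_at), GH3.17 (AT1G28130, 259596_at), GH3.1 (AT2G14960, 266611_at) and GH3.9 (AT2G47750, 266465_at). All 5 are protein-coding genes, and no probe set names one of them together with another gene. Of 14 other GH3 genes on the list used here, 6 were matched to a locus in the gene table, and none of these is named by a single-gene probe set. The other GH3 genes were not analysed here.

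RNA of whole Arabidopsis thaliana seedlings at an age of 7 days was measured on 18 arrays, 3 biological replicates in each of 6 groups, to compare how the mutants sav3-2 and sav1-1 and the wild type Col-0 respond to shade. The shade groups, called SH, were sav3-2, sav1-1 and Col-0 seedlings given 1 h of low R:FR, a red to far-red ratio of 0.7 reached by adding far-red at 20.2 µmol m-2 s-1. Such light reaches plants that grow under or beside other leaves. The matching groups, called Wc, were sav3-2, sav1-1 and Col-0 seedlings that stayed in simulated white light, red at 13 and blue at 1.23 µmol m-2 s-1. All groups have the Col-0 ecotype and were raised on Murashige and Skoog medium at 22 °C. SAV3 is also known as TAA1, an aminotransferase of auxin synthesis, and the sources used here do not say which gene sav1-1 affects. TAA1 is named by no probe set used here, so the sav3-2 labels could not be checked on it. Each mutant is represented by 1 allele.

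Median intensity lay between 34.4 and 65.6 per array before normalization, and arrays of a group correlated with r from 0.973 to 0.987. Values below are quantile-normalized intensities, in the arrays' arbitrary units, and changes are differences of log2(intensity + 16), which understate the change of dim genes. All 5 GH3 probe sets were among the 17125 kept by the filter on dim probe sets. A change was called where limma gave a p under 0.05 after Benjamini-Hochberg adjustment over those 17125. Statements that the arrays of groups did not overlap are descriptions. The share of all probe sets without overlap was not counted. RCA, Rubisco activase of the shoot, read 6541 to 8443 on every array, and BGLU23, a beta-glucosidase of roots, 4092 to 6290. Both markers were thus detected, a check that rests here on 1 gene for each organ. Since RNA came from whole seedlings, fewer cells of a type and less RNA per cell cannot be told apart in any change below.

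GH3.3, which forms auxin conjugates with amino acids and is one of the auxin-inducible members, ranged from 59.5 to 822. In sav3-2 it read 106, 72.6 and 77.35 in low R:FR, against 63.05, 76.0 and 59.5 in white light. In sav1-1 it read 822, 648 and 759 in low R:FR, against 138.5, 115 and 96.9 in white light. In Col-0 it read 368, 312 and 299.7 in low R:FR, against 91.4, 81.7 and 79.5 in white light. The 3 sav1-1 SH arrays lay above all others, the 3 Col-0 SH arrays came next, and the sav3-2 SH arrays lay among the white light arrays. By group mean the order was sav1-1 SH, Col-0 SH, sav1-1 Wc, sav3-2 SH, Col-0 Wc and sav3-2 Wc. Neighbours overlapped only between sav1-1 Wc and sav3-2 SH and between sav3-2 SH and Col-0 Wc.

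WES1, an enzyme that acts on auxin and also on salicylic acid, ranged from 158 to 880. In sav3-2 it read 271, 264 and 274 in low R:FR, against 194, 170.1 and 158 in white light. In sav1-1 it read 880.1, 785.5 and 869.7 in low R:FR, against 416, 332 and 308 in white light. In Col-0 it read 646.5, 523 and 505.5 in low R:FR, against 308, 317 and 219.5 in white light. The light groups did not overlap within any genotype, and the order of the group means was that of GH3.3 except that Col-0 Wc stood above sav3-2 SH. Neighbours in that order overlapped between sav1-1 Wc and Col-0 Wc and between Col-0 Wc and sav3-2 SH.

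GH3.17, which prefers glutamate as the amino acid partner of auxin, had a narrower range, from 250.4 to 558. In sav3-2 it read 355, 370.1 and 284 in low R:FR, against 291, 273 and 250.4 in white light. In sav1-1 it read 558, 496 and 369.7 in low R:FR, against 282, 300.4 and 300.1 in white light. In Col-0 it read 494, 501 and 412 in low R:FR, against 342, 337 and 257 in white light. The light groups overlapped in sav3-2 and were separate in sav1-1 and Col-0. Ordered by mean, sav1-1 SH and Col-0 SH stood first with means of 8.92 ± 0.30 and 8.92 ± 0.15 on the log2 scale (SD, n = 3 each), followed by sav3-2 SH, Col-0 Wc, sav1-1 Wc and sav3-2 Wc. Only Col-0 SH and sav3-2 SH were neighbours without overlap.

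GH3.1, a further auxin-conjugating member, was dim, with intensities from 0.841 to 22.95 and values above 16, the number added before taking logarithms, on 4 of 18 arrays. These were sav1-1 and Col-0 arrays and none of sav3-2, so GH3.1 passed the filter on dim probe sets only through them. In sav3-2 it read 0.841, 4.67 and 2.37 in low R:FR, against 12.5, 7.10 and 5.05 in white light. In sav1-1 it read 9.80, 19.5 and 9.52 in low R:FR, against 22.95, 5.49 and 11.1 in white light. In Col-0 it read 20.0, 8.17 and 20.3 in low R:FR, against 5.32, 14.7 and 3.95 in white light. The sav3-2 SH arrays lay below all arrays of the other groups except the Col-0 Wc array at 3.95. All neighbouring groups in the order of means overlapped. GH3.9, a member linked to primary root growth, was dim as well.

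GH3.9 exceeded 16 on 8 of 18 arrays and ranged from 7.63 to 24.7. In sav3-2 it read 7.65, 16.9 and 7.63 in low R:FR, against 7.80, 23.4 and 14.03 in white light. In sav1-1 it read 24.5, 9.40 and 17.1 in low R:FR, against 24.7, 13.5 and 16.6 in white light. In Col-0 it read 16.65, 12.2 and 15.7 in low R:FR, against 19.2, 12.65 and 9.70 in white light. All 6 groups of GH3.9 overlapped their neighbours, and its order of group means has no meaning beyond the spread.

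**Figure D1:**
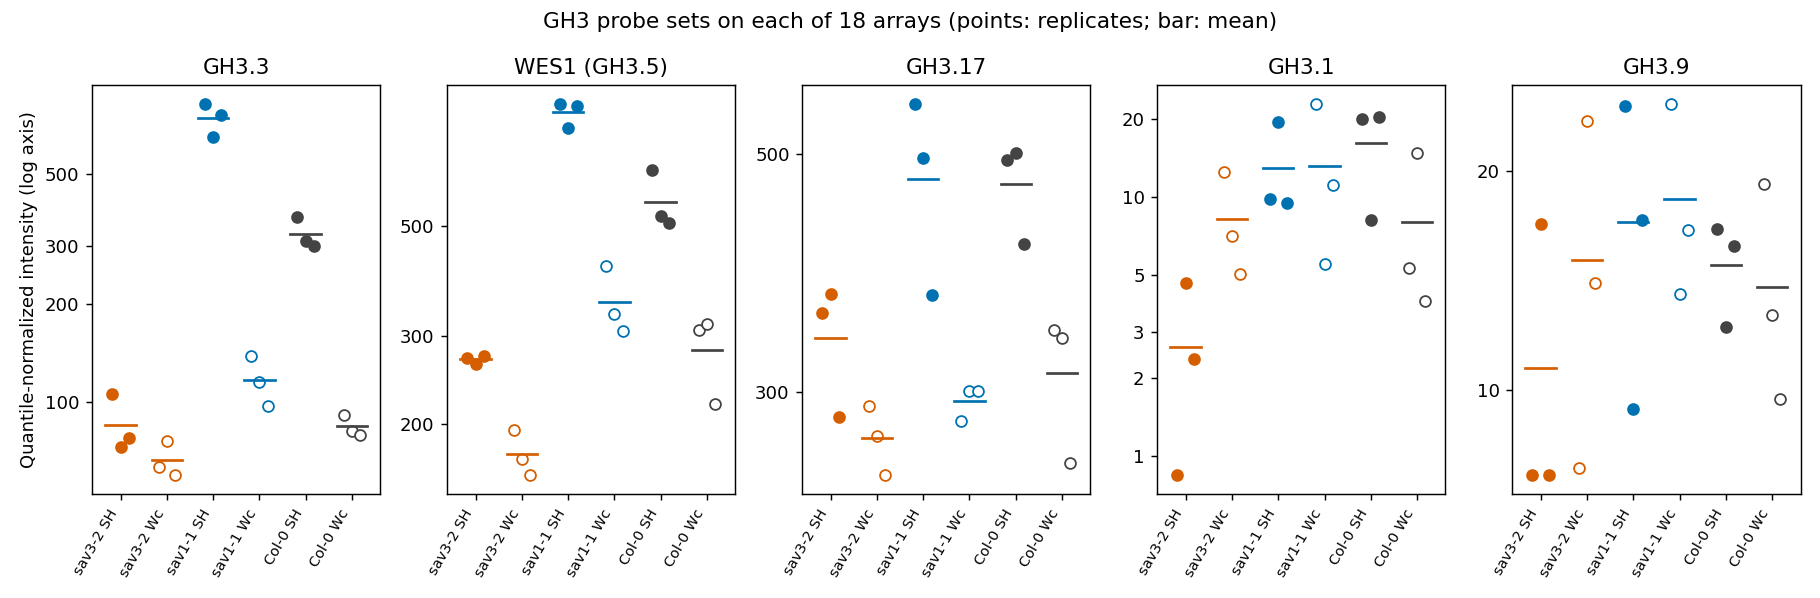
Quantile-normalized intensity (arbitrary units, log axis, a separate scale for each gene) of the 5 GH3 probe sets on 18 arrays. Points are the 3 replicates of a group, filled for low R:FR (SH) and open for white light (Wc), and bars are means. The GH3.3 values of sav3-2 SH, 72.6 to 106, lie beside the white light groups, while those of sav1-1 SH start at 648 and those of Col-0 SH at 299.7.

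The first question was whether 1 h of low R:FR changed these genes in each genotype. In sav3-2 only WES1 was called higher, by 0.59 (SE 0.14, adjusted p = 0.0394). That is 1 of 5 GH3 genes, against 0.631% of all probe sets called higher. GH3.3 differed by 0.29 (95% interval -0.0031 to 0.58, adjusted p = 0.604) and GH3.17 by 0.29 (adjusted p = 0.612). Taken by replicate number, the GH3.3 differences in sav3-2 were 0.62, -0.06 and 0.31, and those of WES1 were 0.45, 0.59 and 0.74. GH3.1 and GH3.9 had values of -0.37 and -0.21 (adjusted p = 0.769 and 0.886), with GH3.1 lower on all 3 SH arrays than on the Wc arrays. The median over the 5 genes was 0.29, beside -0.0076 over all probe sets. The WES1 call depended on single arrays. Its adjusted p was 0.158, 0.127 and 0.103 without sav3-2 SH replicate 1, 2 or 3, and 0.134 and 0.15 without sav3-2 Wc replicate 2 or 3, with changes between 0.53 and 0.61. It was lost in 5 of 9 other settings as well, namely without normalization between arrays (0.74, SE 0.28, adjusted p = 0.72), with a pseudocount of 64 (adjusted p = 0.0614), with no filter (adjusted p = 0.0555), without all arrays numbered 3 (adjusted p = 0.0598) and with only the arrays compared (adjusted p = 0.0525).

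In sav1-1 low R:FR raised 3 of the 5 genes, GH3.3, WES1 and GH3.17, against 1.38% of all probe sets called higher. GH3.3 rose by 2.52 (SE 0.14, limma adjusted p = 1.32e-10), rank 14 of 17125, and the ratio of its mean intensities was 6.35. WES1 rose by 1.24 (SE 0.14, adjusted p = 5.46e-06), a ratio of 2.40. GH3.17 rose by 0.64 (SE 0.14, adjusted p = 0.0141), a ratio of 1.61. The replicate differences were 2.44, 2.34 and 2.78 for GH3.3 and 1.05, 1.203 and 1.45 for WES1, close to each other within each gene, but 0.95, 0.69 and 0.29 for GH3.17. GH3.1 and GH3.9 had values of 0.01 and -0.07 (adjusted p = 0.996 and 0.978). The median over the 5 genes was 0.64, beside -0.012 over all probe sets. The GH3.17 call was lost without sav1-1 Wc replicate 1 (0.61, adjusted p = 0.0702), without sav1-1 SH replicate 1 (0.52, adjusted p = 0.143) and without sav1-1 SH replicate 2 (0.60, adjusted p = 0.0906). It was also lost without normalization between arrays (0.74, SE 0.28, adjusted p = 0.50).

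In Col-0 GH3.3 and WES1 were called higher in low R:FR, 2 of 5 genes against 0.94% of all probe sets. GH3.3 rose by 1.77 (SE 0.14, limma adjusted p = 4.43e-08), rank 28 of 17125, with a ratio of mean intensities of 3.88. WES1 rose by 0.96 (SE 0.14, adjusted p = 0.000202), a ratio of 1.98. GH3.17 came close to the threshold at 0.57 (SE 0.14, adjusted p = 0.0536) and no overlap between the lights. It was called without Col-0 SH replicate 3 (0.66, adjusted p = 0.0377), without all arrays numbered 3 (0.53, adjusted p = 0.0148) and with array weights (0.55, adjusted p = 0.0329). GH3.1 and GH3.9 had values of 0.43 and 0.06 (adjusted p = 0.757 and 0.991). All 5 values were above 0, and their median was 0.57, beside -0.012 over all probe sets. That of GH3.9 turned to -0.0638 without all arrays numbered 3 and to -0.0437 without Col-0 Wc replicate 3. The WES1 call was lost without normalization between arrays (0.78, SE 0.28, adjusted p = 0.534), while that of GH3.3 was kept (1.59).

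**Figure D2:**
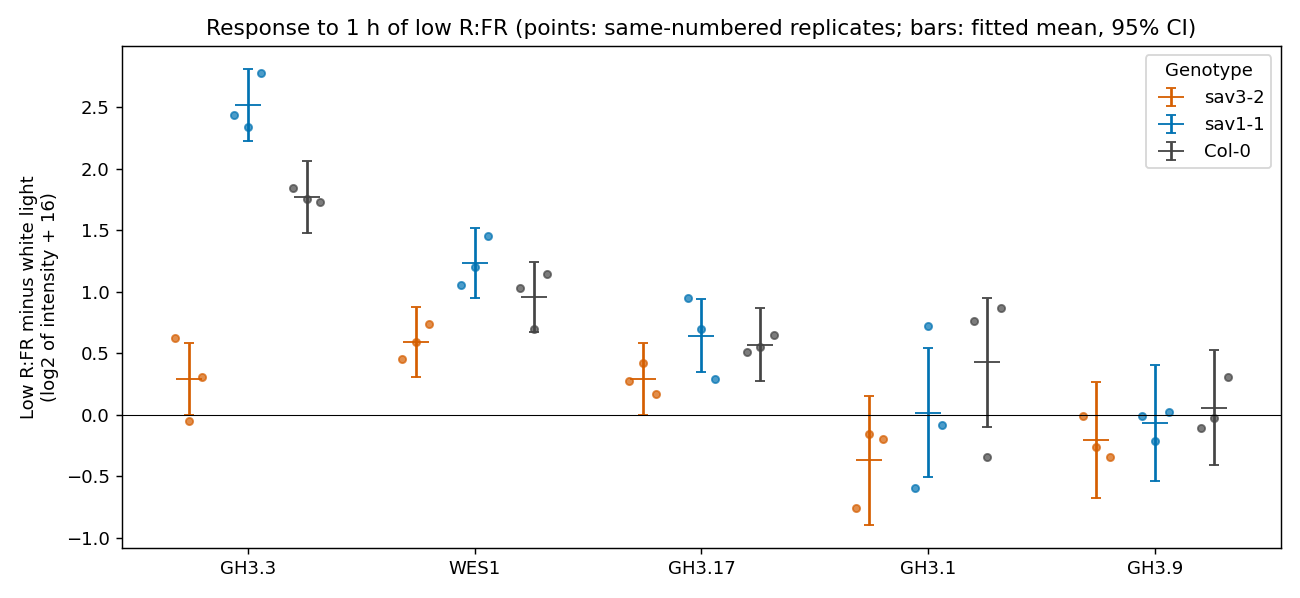
Change of each GH3 gene in low R:FR relative to white light, in units of log2(intensity + 16), for sav3-2, sav1-1 and Col-0. Points are differences between arrays of the same replicate number, which did not pair arrays in Col-0, and bars are the fitted mean with its 95% interval. GH3.3 stands at 0.29, 2.52 and 1.77 in these 3 genotypes, while the intervals of GH3.1 and GH3.9 cover 0 in each.

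Whether the response itself differed between genotypes was tested with interaction contrasts, each the change in one genotype minus the change in another. The response of GH3.3 was smaller in sav3-2 than in Col-0 by a difference of -1.48 (SE 0.20, 95% interval -1.90 to -1.06, limma adjusted p = 0.00147), ranked 7 from the lowest of 17125. It was the only GH3 gene called, 1 of 5 against 0.0409% of all probe sets called lower. WES1 differed by -0.36 (95% interval -0.77 to 0.04), GH3.17 by -0.28 (-0.70 to 0.13), GH3.1 by -0.80 (-1.54 to -0.06) and GH3.9 by -0.26 (-0.93 to 0.40), all with an adjusted p of 1. With a pseudocount of 1 the GH3.1 difference was -2.43, also with an adjusted p of 1. GH3.1 passed the filter through no sav3-2 array, and was not kept with only the arrays compared. All 5 values were below 0, with a median of -0.36, beside 0.0023 over all probe sets. That of GH3.17 turned to 0.0487 without normalization between arrays. The GH3.3 call was lost without normalization between arrays (-1.19, SE 0.38, adjusted p = 0.855).

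The response of GH3.3 was larger in sav1-1 than in sav3-2 by 2.23 (SE 0.20, 95% interval 1.81 to 2.64, limma adjusted p = 4.63e-06), rank 4 of 17125. This was again 1 of 5 genes, against 0.0409% of all probe sets called higher. For WES1 the difference was 0.64 (95% interval 0.24 to 1.04, unadjusted p = 0.00313 and adjusted p = 1 in limma). The values of GH3.17, GH3.1 and GH3.9 were 0.36, 0.39 and 0.14 (adjusted p of 1 each). The median of the 5 was 0.39, the value of the dim GH3.1, beside -0.0027 over all probe sets. Both contrasts use the sav3-2 arrays.

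Between sav1-1 and Col-0 no GH3 gene was called in this test, 0 of 5 against 0% of all probe sets, since limma called 0 of 17125 while 431 had an unadjusted p under 0.05. GH3.3 had a difference of 0.75 (SE 0.20, 95% interval 0.33 to 1.16, unadjusted p = 0.00121, adjusted p = 1), so its larger rise in sav1-1 did not pass. WES1 differed by 0.28 (-0.12 to 0.68), GH3.17 by 0.07 (-0.34 to 0.49), GH3.1 by -0.41 (-1.15 to 0.33) and GH3.9 by -0.12 (-0.79 to 0.54). The median was 0.07, beside 0.0028 over all probe sets.

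**Figure D3:**
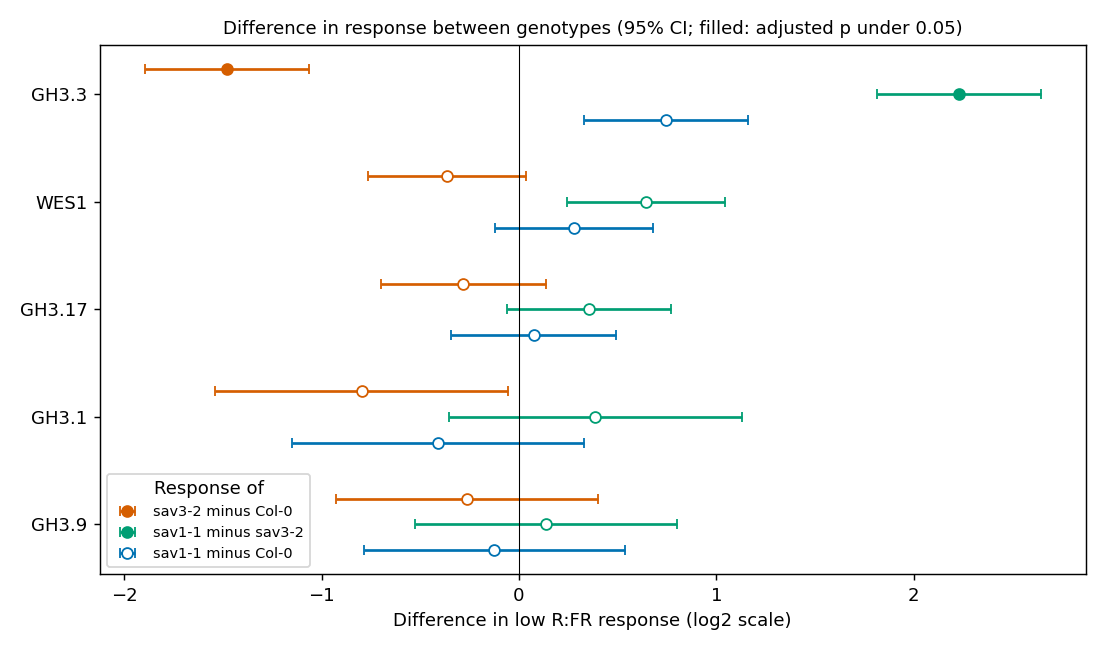
Difference in the low R:FR response between genotypes for each GH3 gene (log2 scale, horizontal axis) with 95% intervals; filled points have an adjusted p under 0.05. GH3.3 is filled for sav3-2 minus Col-0 (-1.48) and for sav1-1 minus sav3-2 (2.23), and open for sav1-1 minus Col-0 (0.75).

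The genotypes were also compared within each light. In white light sav3-2 differed from Col-0 in WES1, which was lower by a log2 difference of -0.63 (SE 0.14, limma adjusted p = 0.0331), 1 of 5 genes against 0.21% of all probe sets called lower. The WES1 intensities of 194, 170.1 and 158 in sav3-2, against 308, 317 and 219.5 in Col-0, did not overlap. GH3.3 did not overlap either, at 59.5 to 76.0 in sav3-2 against 79.5 to 91.4 in Col-0, but its difference of -0.29 was not called (adjusted p = 0.68). GH3.17, GH3.1 and GH3.9 had differences of -0.18, 0.03 and 0.04 (adjusted p = 0.833, 0.991 and 0.985), and the median was -0.18, beside 0.0011 over all probe sets. The sign of GH3.1 turned without normalization between arrays (-0.03). The WES1 call was lost without Col-0 Wc replicate 1 (-0.56, adjusted p = 0.222), Col-0 Wc replicate 2 (-0.54, adjusted p = 0.227), sav3-2 Wc replicate 2 (-0.62, adjusted p = 0.142) and sav3-2 Wc replicate 3 (-0.57, adjusted p = 0.142). It was also lost without normalization between arrays (-0.76, SE 0.28, adjusted p = 0.707), with no filter (adjusted p = 0.0521), with a pseudocount of 64 (adjusted p = 0.053) and with only the arrays compared (adjusted p = 0.248).

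In low R:FR sav3-2 had lower GH3.3 and WES1 than Col-0, 2 of 5 genes against 0.642% of all probe sets called lower. GH3.3 differed by -1.77 (SE 0.14, limma adjusted p = 1.17e-07), ranked 12 from the lowest of 17125, a ratio of mean intensities of 0.261. WES1 differed by -0.9995 (SE 0.14, adjusted p = 0.000158), a ratio of 0.483. GH3.17 was lower on every sav3-2 array than on every Col-0 array, at 284 to 370.1 against 412 to 501, with a difference of -0.46 (adjusted p = 0.153). With the replicate number as a block, which the pairing check narrowly allows here, GH3.17 was called (adjusted p = 0.0143). The lowest same-number r was 0.101, just above the threshold of 0.1, while an unlike-numbered pair reached 0.107. Calls over all probe sets rose with the block from 177 to 397. GH3.1 did not overlap either, with a difference of -0.77 (adjusted p = 0.197), which was -2.29 with a pseudocount of 1 (adjusted p = 0.155). It passed the filter through no sav3-2 array, and was not kept with only the arrays compared. Its ratio of mean intensities was 0.162, from values near the lower end of the scale. GH3.9 had a difference of -0.22 (adjusted p = 0.793). All 5 values were below 0, and their median was -0.77, the value of the dim GH3.1, beside 0.0075 over all probe sets. The WES1 call was lost without normalization between arrays (-0.79, SE 0.28, adjusted p = 0.422).

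Between sav1-1 and Col-0 in white light none of the 5 genes was called, against 0.0934% of all probe sets in either direction (16 by limma, and 1210 at an unadjusted p under 0.05). GH3.3 was higher on every sav1-1 array, at 96.9 to 138.5 against 79.5 to 91.4, with a difference of 0.40 (adjusted p = 0.499). WES1 differed by 0.31, GH3.1 by 0.27, GH3.9 by 0.20 and GH3.17 by -0.07 (adjusted p = 0.656 or above). The median was 0.27, the value of the dim GH3.1, beside -0.001 over all probe sets.

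In low R:FR GH3.3 was higher in sav1-1 than in Col-0, 1 of 5 genes against 0.0993% of all probe sets called higher. Its arrays read 822, 648 and 759 in sav1-1, against 368, 312 and 299.7 in Col-0, a difference of 1.15 (SE 0.14, limma adjusted p = 0.000373), rank 9 of 17125. WES1 did not overlap between these groups, with a difference of 0.59 (SE 0.14, adjusted p = 0.0788). It was called with a pseudocount of 64 (adjusted p = 0.0476) and with array weights (adjusted p = 0.0365). GH3.17 differed by 0.0023 (95% interval -0.29 to 0.30), GH3.1 by -0.15 (-0.67 to 0.38) and GH3.9 by 0.07 (-0.39 to 0.54). The median was 0.07, the value of the dim GH3.9, beside 0.0041 over all probe sets.

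The mutants were also compared with each other. In white light sav1-1 had higher WES1 and GH3.3 than sav3-2, 2 of 5 genes against 0.339% of all probe sets called higher. WES1 differed by 0.95 (SE 0.14, limma adjusted p = 0.000577) and GH3.3 by 0.69 (SE 0.14, adjusted p = 0.02). Neither gene overlapped between these groups, with GH3.3 at 96.9 to 138.5 in sav1-1 against 59.5 to 76.0 in sav3-2. The root hair expansin EXPA7, at 43.6 to 54.6 in sav1-1 against 22.7 to 29.6 in sav3-2 (difference 0.61, adjusted p = 0.234), did not overlap either. Nor did EXPA18, at 48.5 to 66.7 in sav1-1 against 27.6 to 42.1 in sav3-2 (difference 0.54, adjusted p = 0.132). BGLU23, the brightest root marker named, differed by -0.01 (adjusted p = 0.989). The part of these root markers in the GH3 difference was not tested. GH3.1, GH3.9 and GH3.17 had differences of 0.24, 0.16 and 0.11 (adjusted p = 0.874, 0.914 and 0.899). The median was 0.24, the value of the dim GH3.1, beside -0.0025 over all probe sets. The GH3.3 call was lost without sav3-2 Wc replicate 1 (0.66, adjusted p = 0.0713), sav3-2 Wc replicate 3 (0.63, adjusted p = 0.0907), sav1-1 Wc replicate 1 (0.57, adjusted p = 0.155) and sav1-1 Wc replicate 2 (0.69, adjusted p = 0.0848). It was also lost without normalization between arrays (0.79, SE 0.27, adjusted p = 0.386) and with only the arrays compared (adjusted p = 0.0807).

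In low R:FR the difference of GH3.3 between sav1-1 and sav3-2 was 2.91 (SE 0.14, limma adjusted p = 3.22e-11), rank 1 of 17125, a ratio of mean intensities of 8.72. WES1 differed by 1.59 (SE 0.14, adjusted p = 2.84e-07), rank 14. These were 2 of 5 genes, against 0.87% of all probe sets called higher. GH3.1 did not overlap, at 9.52 to 19.5 in sav1-1 against 0.841 to 4.67 in sav3-2, with a difference of 0.62 (adjusted p = 0.416), or 2.02 with a pseudocount of 1 (adjusted p = 0.255). It passed the filter through no sav3-2 array, and was not kept with only the arrays compared. GH3.17 differed by 0.47 (adjusted p = 0.151), its arrays overlapping by a single value, and was called with the replicate number as a block (adjusted p = 0.0121), without all arrays numbered 3 (adjusted p = 0.0214) and without sav1-1 SH replicate 3 (0.63, adjusted p = 0.0366). GH3.9 differed by 0.30 (adjusted p = 0.819). The median was 0.62, the value of the dim GH3.1, beside -0.0034 over all probe sets.

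**Figure D4:**
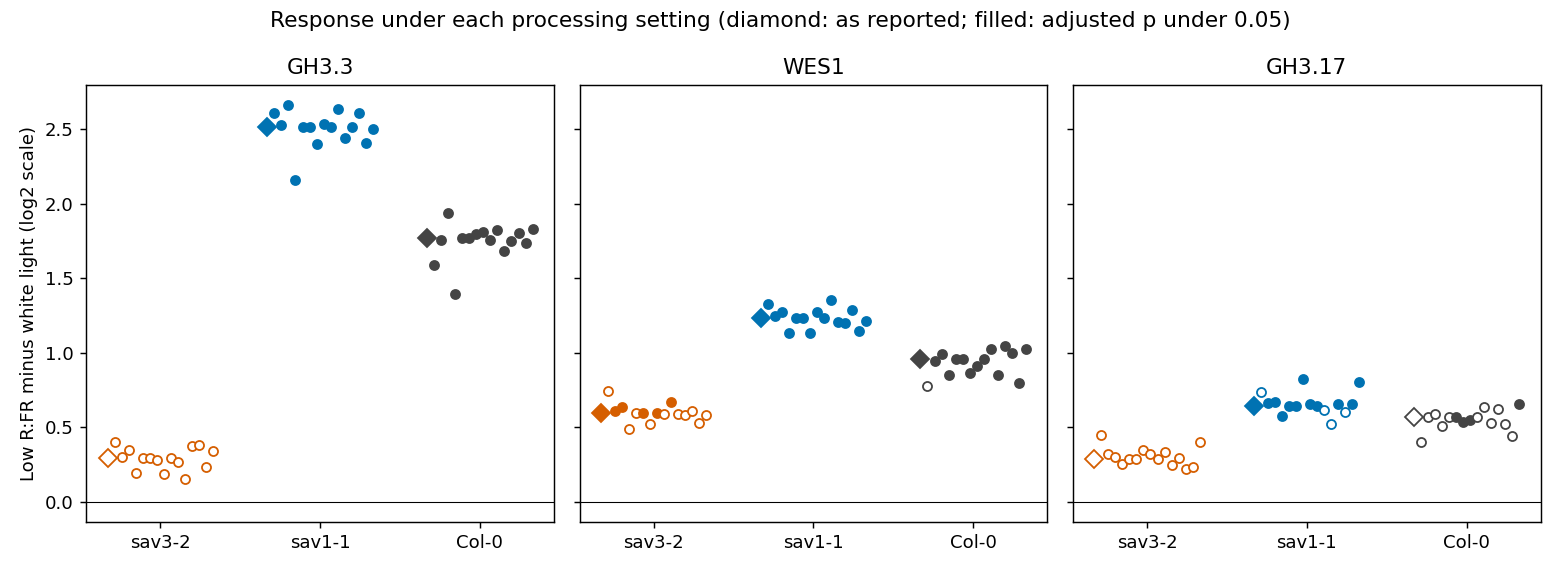
Change in low R:FR relative to white light (log2 scale) of GH3.3, WES1 and GH3.17 under each processing setting, including fits that leave out 1 array. The diamond is the value as reported, and filled symbols have an adjusted p under 0.05. GH3.3 keeps the order sav1-1, Col-0, sav3-2 throughout, and in sav3-2 its symbols are unfilled in every setting shown.

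GH3.3 and WES1 varied together. Over all 18 arrays the log2 levels of GH3.3 and WES1 correlated at r = 0.957, the highest value either had with any of 9468 kept probe sets naming 1 gene. The correlation was 0.993 over the 9 low R:FR arrays and 0.893 over the 9 white light arrays, so it was present within each light as well. These points share group differences in light and genotype, and the values are descriptions. GH3.17 came at rank 28 in likeness to GH3.3 and rank 30 to WES1, while GH3.1 came at 583 and 450 and GH3.9 at 1848 and 1934. After WES1, the probe sets most like GH3.3 were AT5G41400 (r = 0.913), AT4G29780 (r = 0.91), HAT2 (r = 0.901), a homeodomain leucine zipper factor, and AT4G27280 (r = 0.891). After GH3.3, those most like WES1 were AT4G32290 (r = 0.924), BRH1 (r = 0.911), a brassinosteroid-responsive RING protein, AT5G41400 (r = 0.905) and AT1G54200 (r = 0.904). WES1 and AT4G27280 are near neighbours in the annotation, with 1 protein-coding gene, AT4G27270, between them.

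**Figure D5:**
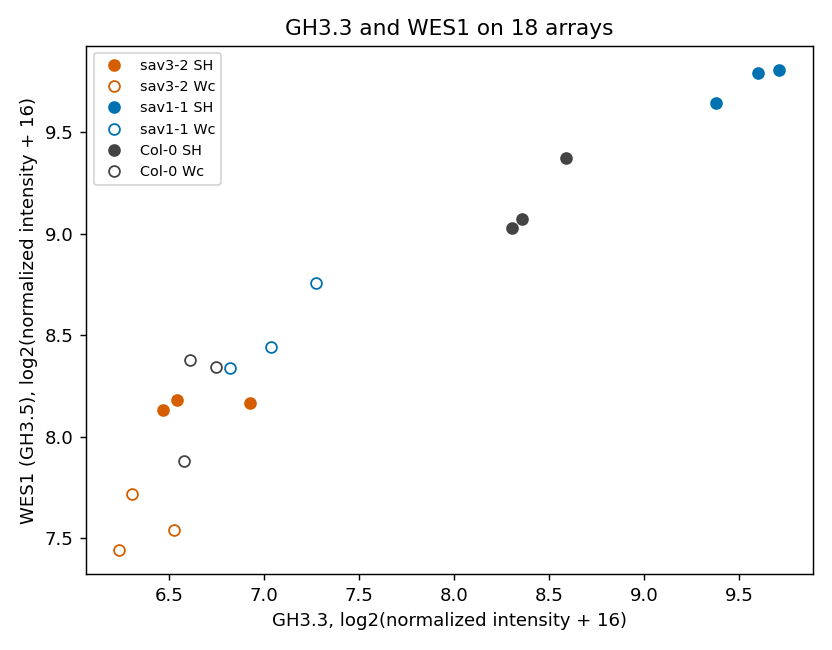
Log2(normalized intensity + 16) of GH3.3 (horizontal) and WES1 (vertical) on the 18 arrays, filled for low R:FR and open for white light. The sav1-1 SH arrays form the upper end, the Col-0 SH arrays follow, and the sav3-2 SH arrays lie among the white light arrays (r = 0.957 over all 18).

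Other genes of the auxin pathway were read from lists. Of 6 other auxin-inactivating enzymes 1 was kept, the glucosyltransferase UGT74D1, and it was called in none of the 12 comparisons. It stood at 0.05 in sav3-2, -0.16 in sav1-1 and -0.02 in Col-0 for low R:FR against white light. Of 21 auxin synthesis genes 2 were kept, YUC2 and YUC6, flavin monooxygenases that act after TAA1. YUC2 rose in sav3-2 by 1.16, in sav1-1 by 1.04 and in Col-0 by 0.77 (limma adjusted p = 9.09e-06, 1.5e-05 and 0.000846), also in sav3-2, where GH3.3 was not called, while YUC6 was called in no comparison.

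Of 29 Aux/IAA genes, repressors of auxin signalling, 4 were kept, and low R:FR raised 1 of them in sav3-2, 2 in sav1-1 and 2 in Col-0, against 0.631%, 1.38% and 0.94% of all probe sets. IAA29 was among them in each genotype. In low R:FR IAA29 was lower in sav3-2 than in Col-0 by a difference of -1.79 (limma adjusted p = 0.00809), as GH3.3 and WES1 were, but its response did not differ between genotypes past the threshold (-0.64, 95% interval -1.66 to 0.38, adjusted p = 1). Of 80 SAUR entries 2 were kept. AT2G18010 (SAUR10), an auxin-induced gene, rose in Col-0 by 1.81 and in low R:FR differed by -1.16 between sav3-2 and Col-0 (adjusted p = 0.0026). Its response differed between them by -1.32, not called (adjusted p = 0.169). Between sav1-1 and Col-0 in low R:FR its difference was -0.67 (adjusted p = 0.254) and that of its response -1.06 (adjusted p = 1), neither called and both opposite in sign to those of GH3.3. The other SAUR kept, AT3G53250, went the other way without a call. It changed by -0.89 in Col-0 and differed by 0.25 between sav3-2 and Col-0 in low R:FR (adjusted p = 0.864 and 0.932). Auxin conjugate hydrolases, auxin receptors, ARF factors and auxin transporters are named by no single-gene probe set and were not analysed here.

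Organ composition was read from marker genes. Of 13 root markers 3 are named, and their summed intensity in low R:FR was 4676 to 6076 in sav3-2, 4714 to 5230 in sav1-1 and 5049 to 5924 in Col-0, ranges that overlap. The sum is mostly BGLU23. EXPA7 followed the genotype order of GH3.3 in low R:FR, at 27.35 to 32.3 in sav3-2, 55.5 to 63.7 in sav1-1 and 34.0 to 52.3 in Col-0. EXPA18 read 31.2 to 39.8 in sav3-2, 47.6 to 64.5 in sav1-1 and 41.8 to 54.0 in Col-0. Between sav1-1 and sav3-2 in low R:FR they differed by 0.71 and 0.48 (adjusted p = 0.0685 and 0.153), where GH3.3 differed by 2.91. BGLU23 differed by -0.14 between these groups (limma adjusted p = 0.86), and by -0.01 in white light (adjusted p = 0.989). In white light the sum of the 3 root markers was 4654 to 5858 in sav3-2, 4213 to 5740 in sav1-1 and 5735 to 6392 in Col-0. Neither expansin was called in any of the 12 comparisons, no named root or shoot marker was at 0, and the part of organ composition in the GH3 results was not tested. For low R:FR against white light EXPA7 changed by 0.09 in sav3-2, 0.19 in sav1-1 and 0.18 in Col-0 (adjusted p = 0.895 or above), where GH3.3 changed by 0.29, 2.52 and 1.77. Of 19 shoot markers only RCA is named, and no seed storage marker of 10 is.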

How the data were processed

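For each array the authors deposited linear intensities of 22810 probe sets. GCRMA is a tool listed in the submitters' processing notes, and its role and version are not stated there. From these values, 64 control probe sets were dropped, arrays were quantile-normalized, and probe sets with log2 intensity above 4 on at least 3 arrays were kept. Using R 4.3.3 and limma 3.58.1, log2(intensity + 16) was modelled over all 18 arrays, as group means with a trended eBayes. The 12 comparisons were two-sided, with Benjamini-Hochberg adjustment over all probe sets kept, and SD is over the 3 arrays of a group.

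Each gene stands on the probe set that names it alone in the platform annotation, updated through a TAIR10.1 gene table (13484 of 13513 matched). The members, lists and settings were chosen with earlier results of these data known. The rule for named genes was all 5 members, list members called in a comparison, and for GH3.3 and WES1 the 5 most correlated genes. EXPA7, EXPA18 and the list genes given without a call were named after their values were seen. The script was tested on simulated data. The number of arrays limits the precision.

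Replicate numbers, from the sample titles, were taken to pair arrays where all 3 same-numbered pairs' deviations from group means correlated above 0.1. This held for every comparison of 2 groups except low R:FR against white light in Col-0 (lowest r 0.0714) and sav1-1 against Col-0 in low R:FR (0.0963). The p values given as main results come from the fit of group means, which did not use this pairing, also where the check held. Of the fits, only the replicate block setting used the pairing.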

Additional observations from a re-analysis of the deposited data

Results flagged for a closer look

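The response of GH3.3 to low R:FR differed in 2 of 3 pairs of genotypes by a test of the difference itself, the interaction contrast in limma. It was smaller in sav3-2 than in Col-0 by a difference of -1.48 (adjusted p = 0.00147), a call that was lost without normalization between arrays (-1.19, adjusted p = 0.855). The arrays of the 2 lights overlapped in sav3-2 and did not in Col-0. It was larger in sav1-1 than in sav3-2 by 2.23 (adjusted p = 4.63e-06), and the arrays of the 2 lights did not overlap in sav1-1. These statements on overlap are descriptions, without a count of how many of all probe sets do not overlap. Between sav1-1 and Col-0 the difference of 0.75 was not called (adjusted p = 1). Both called differences use the same sav3-2 arrays. With 3 arrays in each group, no test for outlying arrays was made.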

How the results depend on the processing

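Without normalization between arrays the number of GH3 genes called was 1 for low R:FR against white light in Col-0, 0 in sav3-2, 0 for sav3-2 against Col-0 in white light, 1 in low R:FR, 1 for sav1-1 against sav3-2 in white light and 0 for the response of sav3-2 against Col-0. In the same 6 comparisons the calls over all probe sets were 85, 79, 46, 83, 79 and 3, against 191, 138, 82, 177, 113 and 7 as reported. For low R:FR against white light in sav1-1 the number of GH3 genes called was then 2, against 3 as reported. Calls over all probe sets there were 145, against 316. The median over all probe sets then shifted by up to 0.27, in the response of sav3-2 against Col-0, where GH3.3 stood at -1.19. In sav3-2 the count for the low R:FR response was 0 also with a pseudocount of 64, with no filter, without all arrays numbered 3 and with only the arrays compared, and 0 to 1 leaving out 1 array; over all probe sets the first 4 of these settings called 132, 110, 259 and 98. For sav3-2 against Col-0 in white light it was 0 with a pseudocount of 64, with no filter and with only the arrays compared (76, 57 and 30 over all probe sets), and 0 to 1 leaving out 1 array. For sav1-1 against sav3-2 in white light it was 1 with only the arrays compared (82 against 113 over all probe sets), and 1 to 2 leaving out 1 array. For sav1-1 against Col-0 in low R:FR it was 2 with a pseudocount of 64, with the replicate block and with array weights, as WES1 was then called (63, 156 and 94 over all probe sets, against 35). Counts that rose to 3 as GH3.17 was called are given where that gene is described. The cause of these changes was not tested. With only the arrays compared the filter kept 3 GH3 genes for low R:FR in sav3-2 and for sav3-2 against Col-0 in white light. GH3.1 and GH3.9 were then not tested. For sav1-1 against sav3-2 in white light it kept 4, without GH3.1.

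With the replicate block WES1 for sav1-1 against Col-0 in low R:FR had a limma adjusted p of 0.00673. GH3.17 for low R:FR against white light in Col-0 had one of 0.00172. Replicate numbers did not pass the pairing check in either comparison (lowest same-number r 0.0963 and 0.0714), so these values stand on a pairing that was not met. No call of a GH3 gene was lost with the block. The WES1 call for low R:FR in sav3-2 was thus kept, in a comparison where the pairing check held (lowest r 0.105). Calls over all probe sets increased with the block, for example to 277 against 138 for low R:FR in sav3-2.

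Signs turned only in values that were not called. Without normalization GH3.1 in sav3-2 against Col-0 in white light was -0.0323 and the GH3.17 response of sav3-2 against Col-0 was 0.0487. GH3.1 in sav1-1, low R:FR against white light, was -0.0194 with median scaling and -0.0008 with a pseudocount of 64. Without all arrays numbered 3, GH3.9 was -0.0638 for low R:FR in Col-0 and -0.0486 for sav3-2 against Col-0 in white light, and GH3.1 was 0.034 for sav1-1 against Col-0 in low R:FR. With array weights GH3.9 was 0.0316 for low R:FR in sav1-1 and -0.0887 for sav1-1 against sav3-2 in white light, GH3.1 was -0.16 and -0.0801 for sav3-2 and sav1-1 against Col-0 in white light, and GH3.17 was -0.0035 for sav1-1 against Col-0 in low R:FR (-0.0016 with only the arrays compared).

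Leaving out 1 array gave these ranges that cross 0. For low R:FR against white light, GH3.9 ran from -0.0437 to 0.18 in Col-0 and from -0.23 to 0.11 in sav1-1, and GH3.1 from -0.18 to 0.25 in sav1-1. For sav3-2 against Col-0 in white light, GH3.1 ran from -0.10 to 0.22 and GH3.9 from -0.15 to 0.22. For sav1-1 against Col-0 in low R:FR, GH3.17 ran from -0.12 to 0.17 and GH3.9 from -0.0859 to 0.25. For the response of sav1-1 against Col-0, GH3.17 ran from -0.0495 to 0.24 and GH3.9 from -0.28 to 0.0512. For sav1-1 against sav3-2, GH3.9 ran from -0.0188 to 0.34 in white light and from -0.0487 to 0.32 in the response.

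The responses of GH3.3 in sav1-1 and Col-0, its differences between all 3 genotypes in low R:FR and its response of sav1-1 against sav3-2 (1.97 to 2.37) stayed called under every alternative run. Values of GH3.1 and GH3.9 lie near the added 16, so their changes are bounded by that scale.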
